A study of Canis lupus familiaris with 12 samples.

Results

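Genes of the Wnt pathway were compared between MDCK cells that formed cysts inside a 3-dimensional gel of type I collagen (3D) and MDCK cells that formed flat sheets on 2-dimensional type I collagen (2D). The genes were chosen by symbol: every gene named WNT or FZD with a number, and a fixed set of receptors, antagonists, ubiquitin ligases, scaffold proteins and transcription factors of the same pathway. They came to 51 genes measured by 88 of the 42924 tested probe sets, against 15115 genes in all. WNT2B, WNT5A and FZD1 are not analysed here.

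MDCK is an established epithelial line from the tubule of a dog kidney. Both groups were MDCK II tet-off cells, which carry the transactivator of a tetracycline-repressed expression system, and both grew in medium with G418. The 3D cells (6 arrays) and the 2D cells (6 arrays) were released from the collagen with collagenase on day 8. Each one-colour Affymetrix array held RNA pooled from 4 samples, so p-values measure the spread between pools, and how the pools were drawn is not given in the sources used here. In bulk RNA, fewer cells that express a gene and less of its RNA per cell cannot be told apart.

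Wnt proteins are secreted, lipid-modified ligands that bind Frizzled receptors together with a co-receptor. In the canonical branch this blocks a destruction complex built on Axin and APC, so that beta-catenin accumulates and acts with TCF/LEF factors on target genes. Other branches act through Frizzled, ROR and RYK receptors on the cytoskeleton and on planar cell polarity, and in kidney development Wnt signals drive tubule formation and its orientation.

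Values are log2(intensity + 1), from the intensity per probe set that the authors deposited. A gene with several probe sets is described by its brightest one on average, here the standing probe set. A gene was called, raised or lowered in 3D, where the adjusted p of limma's moderated test over all probe sets was under 0.05, and fold changes are log2 differences of 3D minus 2D with their standard error (SE). The background of an array was the 95th percentile of 59 control probe sets that match no dog gene, and averaged 5.71 over the arrays. Levels of different probe sets cannot be set against each other.

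Facts of the whole arrays that bear on these genes were as follows. The background was lower in 3D, at 5.66 ± 0.04, than in 2D, at 5.76 ± 0.09 (SD, n = 6 arrays each, a difference of -0.11, two-sided exact permutation p = 0.0130). The log2 ratio of 5-prime to 3-prime signal of actin and GAPDH controls, a sign of RNA quality, was -0.89 ± 0.17 for 3D arrays, against -1.17 ± 0.15 for 2D arrays (SD, n = 6 per group, two-sided exact permutation p = 0.0195), averaged over 5 probe set pairs. In 1 actin pair the order was the opposite, at -2.27 ± 0.17 in 3D and -2.21 ± 0.18 in 2D (SD, n = 6 arrays each, not tested alone). The difference was 0.29 over all pairs, 0.38 over actin pairs alone and 0.15 over GAPDH pairs alone (two-sided exact permutation p = 0.0173 and 0.0260 for actin and GAPDH). Of 1698 genes at or below background on all 12 arrays, 281 were called lowered and 19 raised. The 9 measured kidney epithelial markers were above background in both groups, with a summed intensity of 40605 to 42201 in 3D and 34356 to 39002 in 2D. Of these markers 4 were raised and 2 lowered, where 19.8% and 22.9% of all genes were. Sums of 7 fibroblast markers were 375 to 420 in 3D and 403 to 474 in 2D. Sums of 4 endothelial markers were 269 to 313 in 3D, against 310 to 343 in 2D. Leukocyte markers, 6 in all, summed to 449 to 519 in 3D, against 472 to 511 in 2D. In these 3 lists 0, 0 and 1 genes were raised and 2, 2 and 3 lowered. At background on all 12 arrays lay 1, 1 and 2 of their genes, and the part of other cell types in the results below was not tested.

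Of the 51 Wnt genes, 5 were raised and 14 lowered in 3D and 32 were not called. Over all genes tested 19.8% were raised and 22.9% lowered, against 9.8% and 27.5% of the Wnt genes. With quantile normalization the Wnt genes had 6 raised and 9 lowered, where the whole table had 2625 raised and 3385 lowered genes. Both shares of the Wnt genes were then below those of all genes. After adding the RNA ratio to the fit, the Wnt genes had 4 raised and 2 lowered, where the whole table had 2266 raised and 1621 lowered genes. In that fit 13 of the 19 calls ended, and those that remained were FZD2, RYK, WNT7A and ZNRF3, raised, and FZD6 and WLS, lowered. The ratio itself differed between the groups, so this fit cannot tell its part in the lost calls apart from that of 3D against 2D. Quantile normalization ended the calls of ROR1, FZD9, FZD10, WNT8B, WNT10B, DKK1 and ZNRF3. It added calls for AXIN1, lowered, and for WNT1 and WNT5B, raised, of which WNT1 was at background on all 12 arrays. The median log2 fold change was -0.08 for the Wnt genes and -0.05 for all genes. No Wnt gene changed by as much as 2-fold, a size reached by 1.85% of all genes upward and 0.271% downward. The 6 and 6 values did not overlap for 3 raised genes (FZD2, RYK and WNT7A) and 3 lowered ones (FZD6, WLS and SFRP1), where such separation was found for 13.2% of all genes upward and 9.49% downward.

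**Figure D1:**
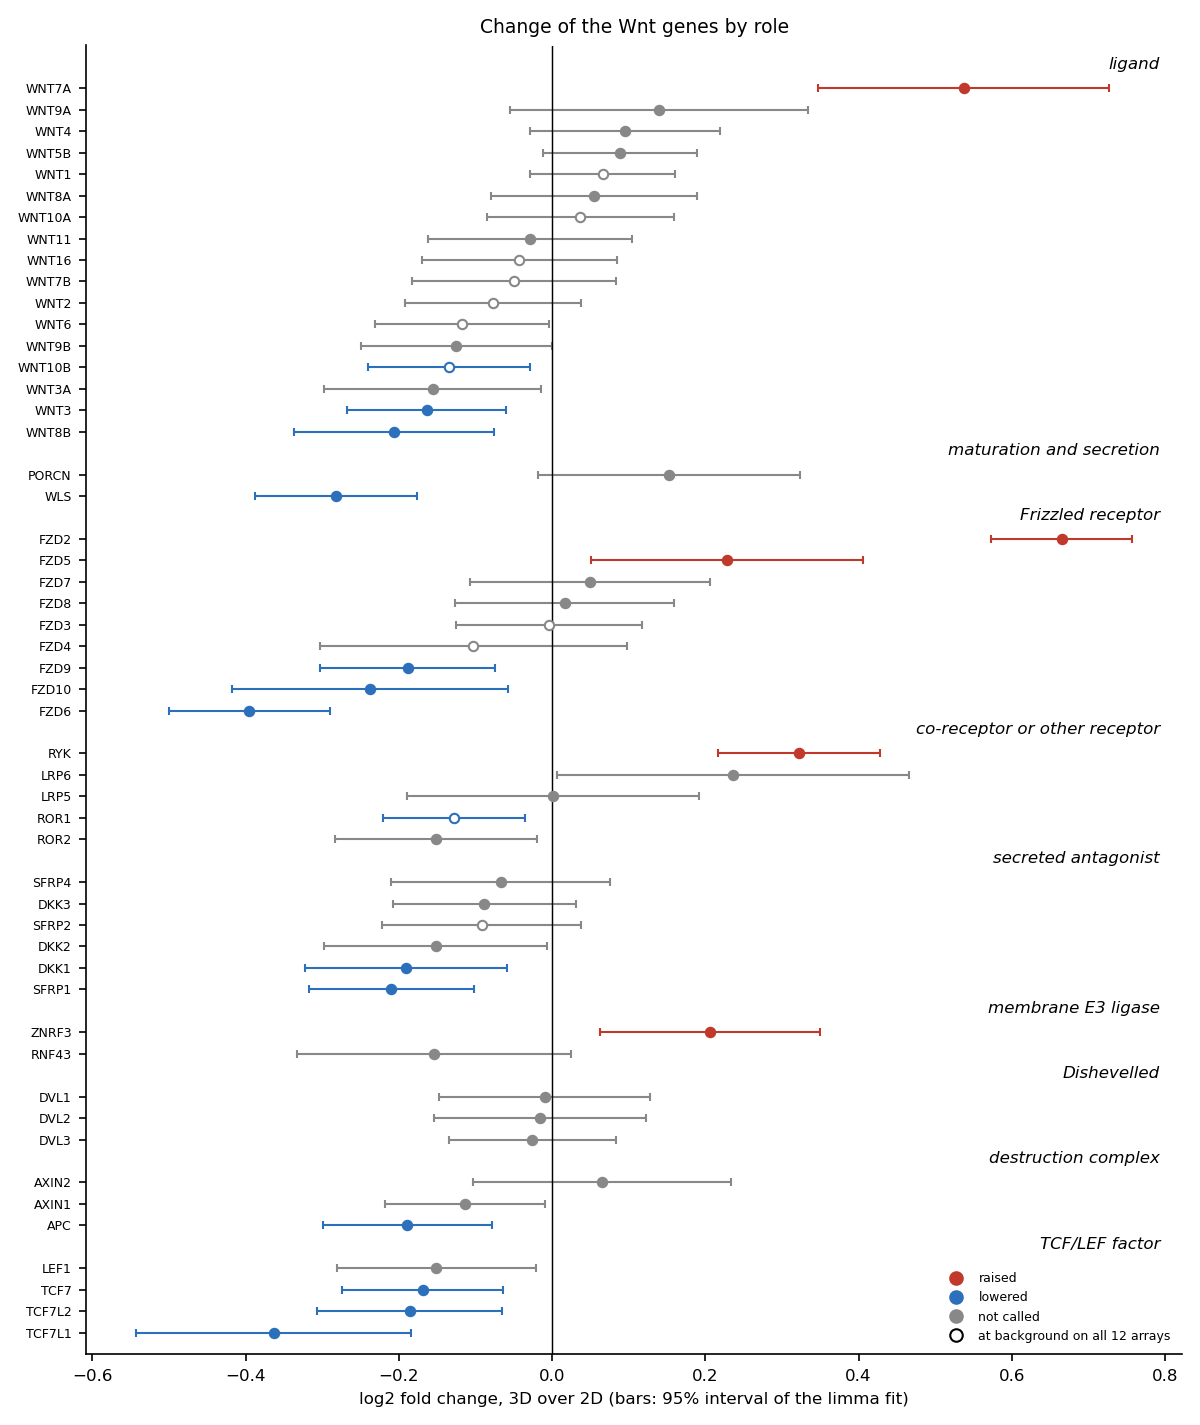
Log2 fold change of 3D over 2D (horizontal axis) for the standing probe set of each of the 51 Wnt genes, grouped by role, with the 95% interval of the limma fit (n = 6 arrays per group). Colour gives the call at an adjusted p under 0.05 and open circles mark the 11 genes at background on all 12 arrays. FZD2, WNT7A and RYK lie farthest to the right of 0 among the called genes, and FZD6, TCF7L1 and WLS farthest to the left.

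Most Wnt ligands gave little or no signal over background. Of 17 ligands measured, 7 lay at or below background on all 12 arrays: WNT1, WNT2, WNT6, WNT7B, WNT10A, WNT10B and WNT16. Only WNT3, WNT4 and WNT11 were above it on every array. WNT4 and WNT9B are ligands of tubule formation in the embryonic kidney of the mouse, and WNT11 marks its branching ureteric tips. WNT9B was at background on 4 arrays of each group, and WNT5B on 3 of the 2D arrays. WNT3A was at background on all 6 3D arrays and on 4 2D arrays. WNT8A and WNT9A were each at background on 5 3D arrays and on all 6 2D arrays.

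WNT7A, a ligand with roles in epithelial development, was the ligand that rose. Its values were 6.28, 6.51 and 6.79 in 3D (lowest, median and highest) and 5.71, 6.04 and 6.10 in 2D. Every 3D array lay above every 2D array, and 1 of the 2D arrays was at background. The difference on the log2 scale was 0.54 (SE 0.09, 1.45-fold; limma adjusted p = 0.000194).

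WNT3, a canonical ligand, fell slightly. It had 7.63, 7.68 and 7.87 in 3D and 7.80, 7.88 and 7.91 in 2D, and the groups overlapped through 3D replicate 2. On the log2 scale 3D minus 2D was -0.16 (SE 0.05, limma adjusted p = 0.0154). Its second probe set had -0.01 (SE 0.05, limma adjusted p = 0.871), and with the mean of both the call ended (-0.09, limma adjusted p = 0.110).

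WNT8B, a ligand best known from the developing brain, fell from a level close to background. It had 5.60, 5.74 and 5.88 in 3D and 5.85, 5.93 and 6.11 in 2D (log2 fold change -0.21 with SE 0.06 and limma adjusted p = 0.0152). The background differed by -0.11 between the same groups. Quantile normalization ended the WNT8B call (-0.13, limma adjusted p = 0.0756), as did adding the RNA ratio (-0.20, limma adjusted p = 0.113). Its second probe set was at background throughout. WNT10B passed the test (limma adjusted p = 0.0434) with both groups at background, so no fold is given, and it lost the call without any 1 of 7 arrays (3D replicates 1, 4 and 5, or 2D replicates 1, 4, 5 and 6, with a limma adjusted p of 0.0684 to 0.100).

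The 2 ligands of highest mean among those that did not pass were WNT11 and WNT4. WNT11 had 6.43, 6.53 and 6.74 in 3D and 6.43, 6.57 and 6.73 in 2D, which is nearly the same span (log2 fold change -0.03, 95% interval -0.16 to 0.10). WNT4 had 6.06, 6.18 and 6.30 in 3D and 6.01, 6.05 and 6.27 in 2D (log2 fold change 0.10, interval -0.03 to 0.22). Over all 13 ligands that did not pass, log2 fold changes lay between -0.16 and 0.14. Of these, WNT3A passed without 2D replicate 3 (-0.21, limma adjusted p = 0.00751) and WNT9B without 3D replicate 2 (-0.15, limma adjusted p = 0.0389). WNT3A was at background on all 3D arrays, and its 2D mean of 5.70 lay below the mean 2D background of 5.76.

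**Figure D2:**
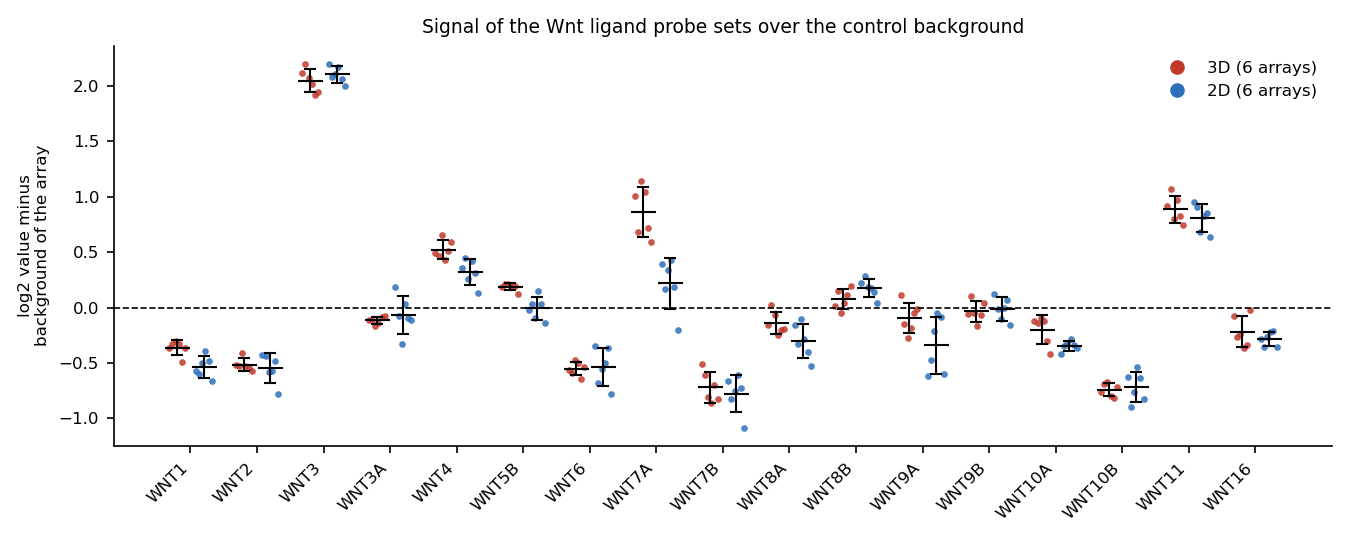
Signal of the standing probe set of each of the 17 Wnt ligands, as the log2 value minus the background of the same array (vertical axis), with 1 point per array, for 3D (red) and 2D (blue), and the mean with its SD in black. The dashed line is the background. WNT3, WNT4 and WNT11 lie above the line on every array and 7 ligands lie below it on every array, and since the background is lower in 3D, differences between groups are read from the log2 values in the text and not from this plot.

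Some WNT genes lie side by side in the genome. By gene identifier, 48 of the 51 genes were found in RefSeq's annotation of UU_Cfam_GSD_1.0, and 4 pairs were direct neighbours among protein-coding genes. These were WNT3A and WNT9A, WNT10B and WNT1, WNT6 and WNT10A, and WNT9B and WNT3. In the first pair the log2 fold changes were -0.16 and 0.14 with neither called, and in the last they were -0.12 and -0.16 with WNT3 called. Of the 12 arrays, WNT3A was at background on 10, WNT9A on 11 and WNT9B on 8. The other pairs were at background on all arrays.

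Of the 2 genes of maturation and secretion, WLS was lowered and PORCN was not called. WLS, the carrier that escorts Wnt proteins to the cell surface, had 12.85, 12.91 and 12.94 in 3D and 13.05, 13.20 and 13.32 in 2D. No 3D array reached the lowest 2D array. Its log2 fold change came to -0.28 (SE 0.05, limma adjusted p = 0.000334). All 4 of its probe sets were lowered, by -0.28 to -0.38, and on 3 of them the groups did not overlap.

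PORCN, the acyltransferase that adds the lipid to Wnt proteins, gave a different result on its 2 probe sets. The standing one had 7.68, 7.83 and 7.95 in 3D and 7.52, 7.63 and 8.08 in 2D (log2 fold change 0.15 with SE 0.08 and limma adjusted p = 0.144), where 2D replicate 6 held the highest value of all. The other had 7.76, 7.91 and 7.99 in 3D and 7.34, 7.60 and 7.66 in 2D (log2 fold change 0.34 with SE 0.06 and limma adjusted p = 0.000356), with no overlap. Without 2D replicate 6 the standing probe set passed as well (0.23, limma adjusted p = 0.00335).

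Of 9 Frizzled receptors measured, 2 were raised, 3 lowered and 4 not called, or 22.2% and 33.3% against 19.8% and 22.9% of all genes. FZD3 and FZD4 lay at background on all 12 arrays. Frizzleds are seven-pass membrane proteins that bind Wnt through an outer cysteine-rich domain.

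FZD2, a receptor of canonical and calcium-linked signals, had the largest change of the 51 genes. It had 9.02, 9.09 and 9.23 in 3D and 8.39, 8.45 and 8.45 in 2D. The distance between the groups was several times the range within either. The log2 fold change was 0.66 (SE 0.04, 1.59-fold; limma adjusted p = 5.95e-09), and over the alternatives other than a required 2-fold change it lay between 0.56 and 0.69.

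FZD6, a receptor tied to planar cell polarity in skin and hair of the mouse, had the largest fall. It had 10.60, 10.67 and 10.77 in 3D and 10.99, 11.08 and 11.19 in 2D, with no overlap. The difference on the log2 scale was -0.40 (SE 0.05, limma adjusted p = 1.06e-05). The second probe set gave the same value, -0.40 (SE 0.09, limma adjusted p = 0.00278), with 8.79, 9.20 and 9.36 in 3D and 9.27, 9.57 and 9.75 in 2D, where the groups overlapped.

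The other Frizzled calls had larger adjusted p-values. FZD5, a receptor needed in intestinal Paneth cells of the mouse, had 6.31, 6.66 and 6.73 in 3D and 6.20, 6.32 and 6.62 in 2D (log2 fold change 0.23 with SE 0.08 and limma adjusted p = 0.0411). The groups overlapped, and the call ended without any 1 of 8 arrays (3D replicates 1, 3, 4 and 6, or 2D replicates 1, 2, 3 and 4, with a limma adjusted p of 0.0707 to 0.0933). FZD10 had 5.89, 6.10 and 6.42 in 3D and 6.23, 6.29 and 6.55 in 2D (log2 fold change -0.24 with SE 0.08 and limma adjusted p = 0.0370). Its call ended without any 1 of 6 arrays (3D replicates 1, 4, 5 and 6, or 2D replicates 5 and 6, with a limma adjusted p of 0.0504 to 0.0861), and in a fit that includes the RNA ratio its log2 fold change was -0.04 (limma adjusted p = 0.805). FZD9 had 5.67, 5.78 and 5.97 in 3D and 5.91, 6.00 and 6.04 in 2D (log2 fold change -0.19 with SE 0.05 and limma adjusted p = 0.0116), just above background in both groups. Fitted with the RNA ratio FZD9 had -0.08 (limma adjusted p = 0.395).

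FZD7 and FZD8 did not pass. FZD7, which binds canonical ligands in stem cells, spanned 6.80 to 7.29 in 3D, against 6.82 to 7.14 in 2D (log2 fold change 0.05, 95% interval -0.11 to 0.21). FZD8 had medians of 6.84 in 3D and 6.82 in 2D (log2 fold change 0.02, interval -0.13 to 0.16), while its second probe set was lowered by -0.15 (SE 0.05, limma adjusted p = 0.0290).

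**Figure D3:**
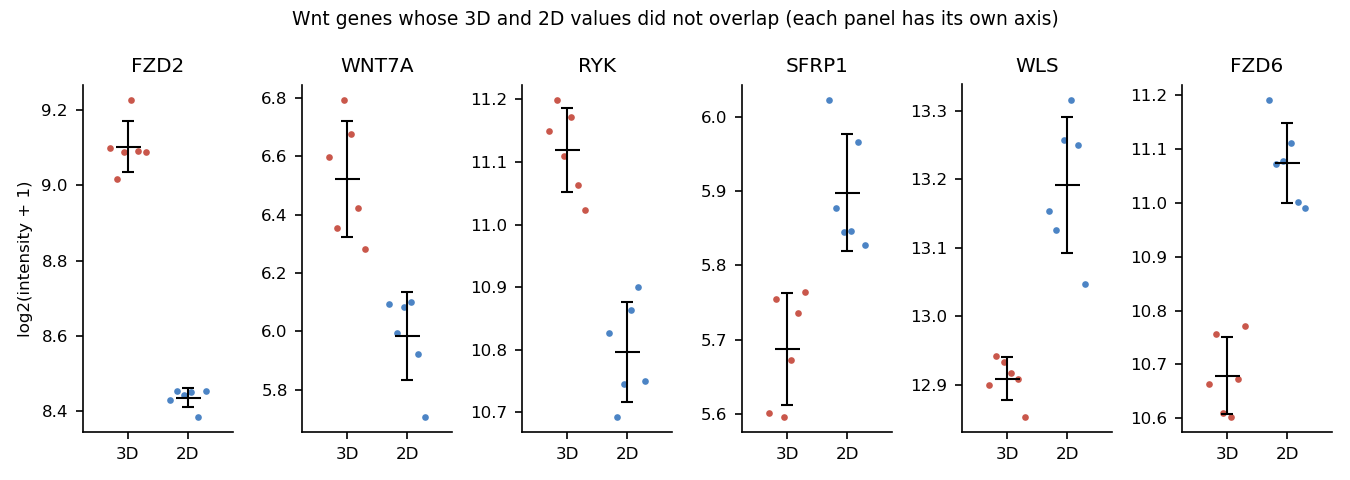
Log2(intensity + 1) per array (vertical axis, a scale for each panel) of the 6 Wnt genes whose 3D and 2D values did not overlap, with 3D left of 2D and the mean with its SD in black (n = 6 arrays each). FZD2, WNT7A and RYK are higher on every 3D array, and SFRP1, WLS and FZD6 are lower on every 3D array.

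Among the co-receptors and other receptors 1 was raised and 1 lowered of 5, or 20% each, against 19.8% and 22.9% of all genes. RYK, a receptor with an inactive kinase domain that binds Wnt through its WIF domain, had 11.02, 11.13 and 11.20 in 3D and 10.69, 10.79 and 10.90 in 2D. All 3D arrays lay above all 2D arrays. On the log2 scale 3D minus 2D was 0.32 (SE 0.05, limma adjusted p = 9.15e-05), and all 3 of its probe sets were raised, by 0.24 to 0.36, each with no overlap.

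LRP5 and LRP6, the co-receptors of canonical signalling, did not pass. LRP5 had 7.47, 7.74 and 7.95 in 3D and 7.51, 7.66 and 7.96 in 2D (95% interval of the log2 fold change -0.19 to 0.19). LRP6 had 6.45, 6.68 and 6.96 in 3D and 6.26, 6.37 and 6.87 in 2D (log2 fold change 0.24 with SE 0.11 and limma adjusted p = 0.0945). One 2D array set the upper end of the LRP6 range: without 2D replicate 1 the log2 fold change was 0.32 (limma adjusted p = 0.0142).

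ROR2, a receptor of non-canonical ligands, did not pass (log2 fold change -0.15 with SE 0.06 and limma adjusted p = 0.0650) but did without 3D replicate 2 (-0.17, limma adjusted p = 0.0355) or 2D replicate 5 (-0.18, limma adjusted p = 0.0412). ROR1, its relative, passed (limma adjusted p = 0.0301) with both groups at background, so no fold is given. The ROR1 call ended without any 1 of 6 arrays (3D replicates 1, 3, 4 and 5, or 2D replicates 1 and 2, with a limma adjusted p of 0.0567 to 0.0629).

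Secreted antagonists bind Wnt proteins, as the SFRP proteins do, or the LRP co-receptors, as DKK1 and DKK2 do. Of 6 measured, 2 were lowered and 0 raised by limma, where 22.9% and 19.8% of all genes were. DKK2 had an unadjusted limma p of 0.0415, and the share of all genes at an unadjusted cut-off was not counted. On the standing probe sets all 6 log2 fold changes lay between -0.21 and -0.07. SFRP1 had 5.60, 5.70 and 5.76 in 3D and 5.83, 5.86 and 6.02 in 2D. The groups did not overlap, though 1 array of each was at background. Its log2 fold change came to -0.21 (SE 0.05, limma adjusted p = 0.00431), and once the RNA ratio entered the fit it was -0.18 (limma adjusted p = 0.0849).

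DKK1 was called lowered (limma adjusted p = 0.0242) but was at background on all 3D arrays and on 5 of the 2D arrays. Its 2D mean of 5.67 lay below the mean 2D background of 5.76, so no fold is given. That call ended without 3D replicate 1 (limma adjusted p = 0.0576) or 2D replicate 1 (limma adjusted p = 0.0529). DKK2 had 6.50, 6.83 and 6.90 in 3D and 6.78, 6.95 and 7.03 in 2D (log2 fold change -0.15 with SE 0.07 and limma adjusted p = 0.0895). SFRP4 had 6.20, 6.32 and 6.39 in 3D and 6.15, 6.35 and 6.57 in 2D (log2 fold change -0.07, 95% interval -0.21 to 0.08). A dimmer SFRP4 probe set was called lowered (limma adjusted p = 0.0301) but at background on every array, so no fold is given. DKK3, a divergent member of the DKK family, did not pass on its standing probe set (log2 fold change -0.09 with SE 0.06 and limma adjusted p = 0.224). Its second probe set was called raised without overlap (limma adjusted p = 0.000104) but at background on every array, so no fold is given, and with the mean of both DKK3 was raised by 0.13 (limma adjusted p = 0.0287). SFRP2 was at background throughout.

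RNF43 and ZNRF3 are membrane ubiquitin ligases that remove Frizzled receptors from the cell surface. ZNRF3 had 8.65, 8.80 and 8.95 in 3D and 8.39, 8.64 and 8.76 in 2D (log2 fold change 0.21 with SE 0.07 and limma adjusted p = 0.0245). The groups overlapped, and the call ended without 3D replicate 1, 2D replicate 1 or 2D replicate 2 (limma adjusted p 0.0545 to 0.0585). With quantile normalization ZNRF3 had 0.10 (limma adjusted p = 0.266). RNF43 had 6.11, 6.28 and 6.69 in 3D and 6.27, 6.48 and 6.64 in 2D (log2 fold change -0.15 with SE 0.08 and limma adjusted p = 0.157), and passed without 3D replicate 2 (-0.23, limma adjusted p = 0.0121). Raised calls numbered 3 in place of 5 without 3D replicate 1 and likewise without 2D replicate 2.

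The Dishevelled genes, whose proteins relay the signal from Frizzled to the destruction complex and to the polarity pathway, did not pass. DVL3 had 8.17, 8.26 and 8.36 in 3D and 8.17, 8.30 and 8.39 in 2D (log2 fold change -0.03, 95% interval -0.14 to 0.08). DVL2 had 7.15, 7.32 and 7.40 in 3D and 7.11, 7.32 and 7.50 in 2D (log2 fold change -0.02, interval -0.15 to 0.12). For DVL1 the interval was -0.15 to 0.13. None of these intervals reached the size of the change seen in WLS.

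Of the destruction complex, APC alone was called. APC, the scaffold that holds beta-catenin in the complex, had 10.47, 10.48 and 10.55 in 3D and 10.48, 10.72 and 10.77 in 2D. The low 2D value was that of replicate 6, which lay within the 3D range. The log2 fold change was -0.19 (SE 0.05, limma adjusted p = 0.00952), and after adding the RNA ratio to the fit -0.18 (limma adjusted p = 0.102). The other 4 probe sets of APC had log2 fold changes between -0.17 and -0.08 and did not pass.

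AXIN2, a scaffold of the complex and a widely used readout of canonical signalling because beta-catenin induces it, was measured by 6 probe sets, of which none passed. The standing one had 7.19, 7.30 and 7.47 in 3D and 6.91, 7.27 and 7.45 in 2D, so that the 3D arrays lay almost wholly inside the 2D range. Its log2 fold change was 0.07 (SE 0.08, 95% interval -0.10 to 0.23, limma adjusted p = 0.532). Over the 6 probe sets log2 fold changes lay between -0.11 and 0.12, with 3 above 0 and 3 below. AXIN1 had 7.88, 7.94 and 8.05 in 3D and 7.95, 8.07 and 8.15 in 2D (log2 fold change -0.11 with SE 0.05 and limma adjusted p = 0.0778), and passed without 2D replicate 2 (-0.14, limma adjusted p = 0.0460). It also passed with quantile normalization (-0.21, limma adjusted p = 0.00185). A dimmer AXIN1 probe set went the other way, with 6.32, 6.43 and 6.48 in 3D and 5.82, 6.21 and 6.29 in 2D (log2 fold change 0.25 with SE 0.07 and limma adjusted p = 0.0104).

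The TCF/LEF factors bind DNA and recruit beta-catenin. On their standing probe sets 3 of 4 were lowered, where 22.9% of all genes were, and none of the 3 kept its call once the RNA ratio entered the fit. TCF7L1, mostly a repressor of Wnt targets, had 6.51, 6.61 and 6.71 in 3D and 6.61, 7.01 and 7.26 in 2D. The groups overlapped at the low end of the wider 2D range. The difference on the log2 scale was -0.36 (SE 0.08, limma adjusted p = 0.00313), and in a fit that includes the RNA ratio it was -0.29 (limma adjusted p = 0.0921). Its second probe set, near background, had -0.08 (SE 0.06, limma adjusted p = 0.291).

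TCF7 and TCF7L2 each had probe sets called in opposite directions. The standing probe set of TCF7 had 6.41, 6.48 and 6.62 in 3D and 6.58, 6.66 and 6.75 in 2D (log2 fold change -0.17 with SE 0.05 and limma adjusted p = 0.0135). The other had 6.34, 6.76 and 6.80 in 3D and 5.85, 6.19 and 6.25 in 2D, with no overlap (log2 fold change 0.56 with SE 0.08 and limma adjusted p = 7.50e-05). The larger change thus belonged to the probe set that does not stand for the gene, and with the mean of both TCF7 was raised by 0.19 (limma adjusted p = 0.00528).

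For TCF7L2, the main TCF factor of many epithelia, the standing probe set had 7.89, 7.96 and 8.22 in 3D and 8.06, 8.20 and 8.24 in 2D (log2 fold change -0.19 with SE 0.06 and limma adjusted p = 0.0176). That call ended after adding the RNA ratio (-0.10, limma adjusted p = 0.352). A second had 7.40, 7.51 and 7.68 in 3D and 7.09, 7.13 and 7.25 in 2D, again with no overlap (log2 fold change 0.39 with SE 0.05 and limma adjusted p = 2.60e-05). The third was near background and did not pass (log2 fold change 0.12 with SE 0.05 and limma adjusted p = 0.0781). Both genes are known to give several transcripts, and which of them each probe set detects is not given in the sources used here. LEF1 was at background on 5 of the 3D arrays and 4 of the 2D arrays and did not pass (log2 fold change -0.15 with SE 0.06 and limma adjusted p = 0.0611), but did without 3D replicate 2 (limma adjusted p = 0.0422) or 2D replicate 3 (limma adjusted p = 0.0184).

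**Figure D4:**
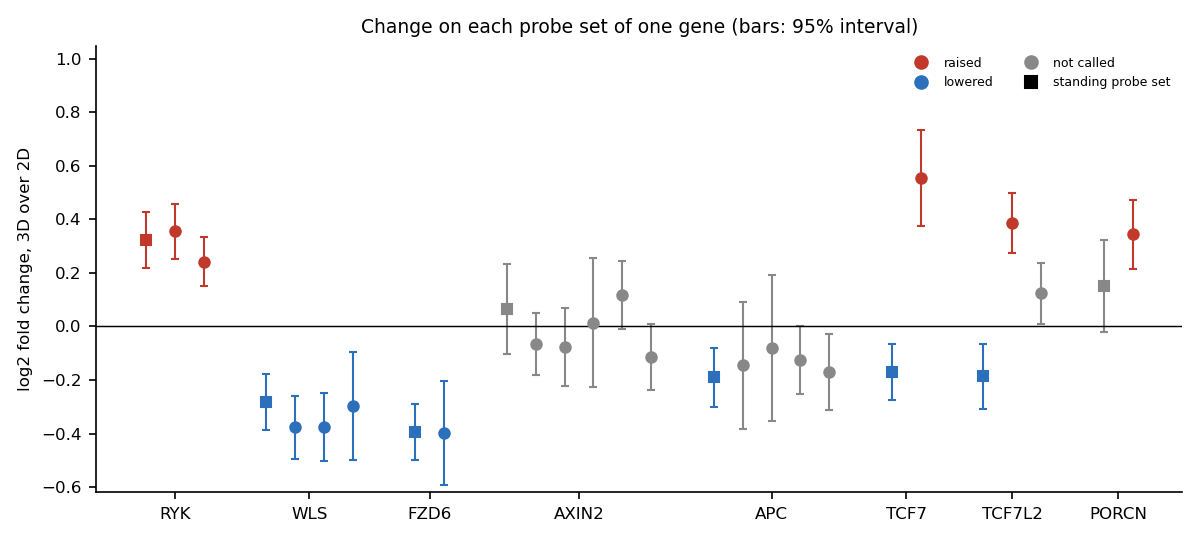
Log2 fold change of 3D over 2D (vertical axis) on every probe set of 8 Wnt genes, with the 95% interval of the limma fit (n = 6 arrays per group). Squares are the standing probe sets and colour gives the call. The probe sets of RYK, of WLS and of FZD6 were called in the same direction, none of the 6 of AXIN2 was called, and those of TCF7 and TCF7L2 were called on both sides of 0.

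Several probe sets measured 22 of the 51 genes, and their calls differed for 11 of these, or 50%, against 43% of the 8254 genes with several probe sets in the whole table. Calls in opposite directions were made for 2 of the 22 Wnt genes and for 2.53% of those 8254 genes. Of the 88 probe sets, 12 were raised and 20 lowered, where 16.7% and 22% of all probe sets were. With quantile normalization 15 were raised and 14 lowered, where the whole table had 6623 raised and 8596 lowered probe sets. Probe sets ending in _s_at or _x_at, which can hybridise with several transcripts of a family, stood for 11 genes, among them RYK, LRP5, ROR2, WNT4, ZNRF3, DVL2, AXIN1 and LEF1.

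Many of the 51 Wnt genes were dim, and most of those not called had both group means less than 1 log2 unit above background. Of the 14 lowered genes, 8 had both group means less than 1 log2 unit above background (ROR1, FZD9, FZD10, WNT8B, WNT10B, DKK1, SFRP1 and TCF7). The same held for 2 of the 5 raised ones, FZD5 and WNT7A. FZD9, FZD10, WNT8B, SFRP1 and TCF7 had log2 fold changes between -0.24 and -0.17, beside a difference of -0.11 in the background, whose part in them was not tested. The brighter lowered genes were FZD6, WLS, TCF7L1, APC, TCF7L2 and WNT3.

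Other genes of the pathway were read from a list of 65 partners, of which 60 were measured, chosen like the Wnt genes with earlier results known. Of these 11 were raised, 17 lowered and 32 not called, or 18.3% and 28.3%, against 19.8% and 22.9% of all genes. Their median log2 fold change was -0.06, and that of all genes -0.05. Fitted with the RNA ratio 7 partners were raised and 5 lowered, where 2266 and 1621 of all genes were.

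APCDD1, a membrane inhibitor of Wnt signalling that is also a Wnt target, had 7.25, 7.43 and 7.50 in 3D and 8.26, 8.60 and 8.79 in 2D. The 3D values lay far below all 2D values. On the log2 scale 3D minus 2D was -1.14 (SE 0.08, 2.20-fold lower; limma adjusted p = 2.42e-08). FRZB, a secreted antagonist of the SFRP family, had 10.04, 10.11 and 10.18 in 3D and 8.90, 9.06 and 9.27 in 2D. It rose by 1.02 (SE 0.06, 2.03-fold; limma adjusted p = 2.62e-09). NOTUM, an esterase that strips the lipid from Wnt proteins, had 6.43, 6.54 and 6.68 in 3D and 5.76, 5.79 and 5.90 in 2D, where 2 arrays were at background, and rose by 0.74 (SE 0.05, limma adjusted p = 1.29e-08).

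PTK7, a receptor of planar cell polarity, rose by 0.61 (SE 0.07, limma adjusted p = 8.43e-06) on its standing probe set, while its second probe set was lowered. BCL9, which links beta-catenin to PYGO proteins, rose by 0.55 (SE 0.08, limma adjusted p = 4.73e-05). CREBBP, a histone acetyltransferase and coactivator of beta-catenin, fell by 0.49 (SE 0.05, limma adjusted p = 1.32e-06), on 2 of its 3 probe sets.

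Beta-catenin itself, CTNNB1, and the kinase GSK3B were picked out after their values were seen. CTNNB1 had 12.96, 13.01 and 13.05 in 3D and 12.59, 12.70 and 12.73 in 2D, with no overlap, and rose by 0.34 (SE 0.04, limma adjusted p = 1.32e-05) with both of its probe sets raised. GSK3B, which marks beta-catenin for breakdown, had 7.96, 8.35 and 8.55 in 3D and 7.76, 7.86 and 8.27 in 2D, so that the groups overlapped, and rose by 0.40 (SE 0.10, limma adjusted p = 0.00456). Amounts of RNA say nothing of the stability of the beta-catenin protein.

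The list of Wnt targets held 30 symbols, of which KIAA1199 and CEMIP name the same gene. All 29 genes were measured, and 10 were raised and 3 lowered, or 34.5% and 10.3%, against 19.8% and 22.9% of all genes. Their median log2 fold change was 0.004, and that of all genes -0.05. The raised targets ranged from SLC12A2, at 0.17, to CCND1, at 1.89. Lowered targets numbered 6 without 3D replicate 2 and 6 without 2D replicate 3. The list shares AXIN2, RNF43, ZNRF3, TCF7, LEF1 and FZD7 with the Wnt genes above. Without them 9 of 23 were raised and 2 lowered. NKD1, NKD2, LGR5, NOTUM and APCDD1 are also partners, so they entered the counts of both lists.

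Cyclin D1, CCND1, had the largest change on the list, with 10.08, 10.16 and 10.33 in 3D and 7.95, 8.32 and 8.56 in 2D (log2 fold change 1.89 with SE 0.11 and limma adjusted p = 1.13e-09). CD44, a hyaluronan receptor, had 10.86, 11.00 and 11.18 in 3D and 9.37, 9.51 and 9.67 in 2D and rose by 1.48 (SE 0.07, limma adjusted p = 9.94e-11), with all 3 of its probe sets raised. Both are also targets of other growth pathways. BIRC5, a mitotic survival protein, rose by 0.97 (SE 0.10, limma adjusted p = 1.48e-06), and the ephrin receptor EPHB2 by 0.88 (SE 0.08, limma adjusted p = 2.15e-07).

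Of the 16 listed targets that did not pass, AXIN2, NKD1, NKD2, LGR5, RNF43, LEF1 and SP5 were picked out after their values were seen. The called targets of the same list included NOTUM and ZNRF3, raised, and APCDD1 and TCF7, lowered. NKD1, an inhibitor of Dishevelled, differed by -0.24 (SE 0.12, limma adjusted p = 0.125). LGR5, a receptor for R-spondins and a stem cell marker, had -0.19 (SE 0.09, limma adjusted p = 0.0850) and was at background on 5 of the 3D arrays. SP5 was at background on all 2D arrays and on 3 of the 3D arrays.

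**Figure D5:**
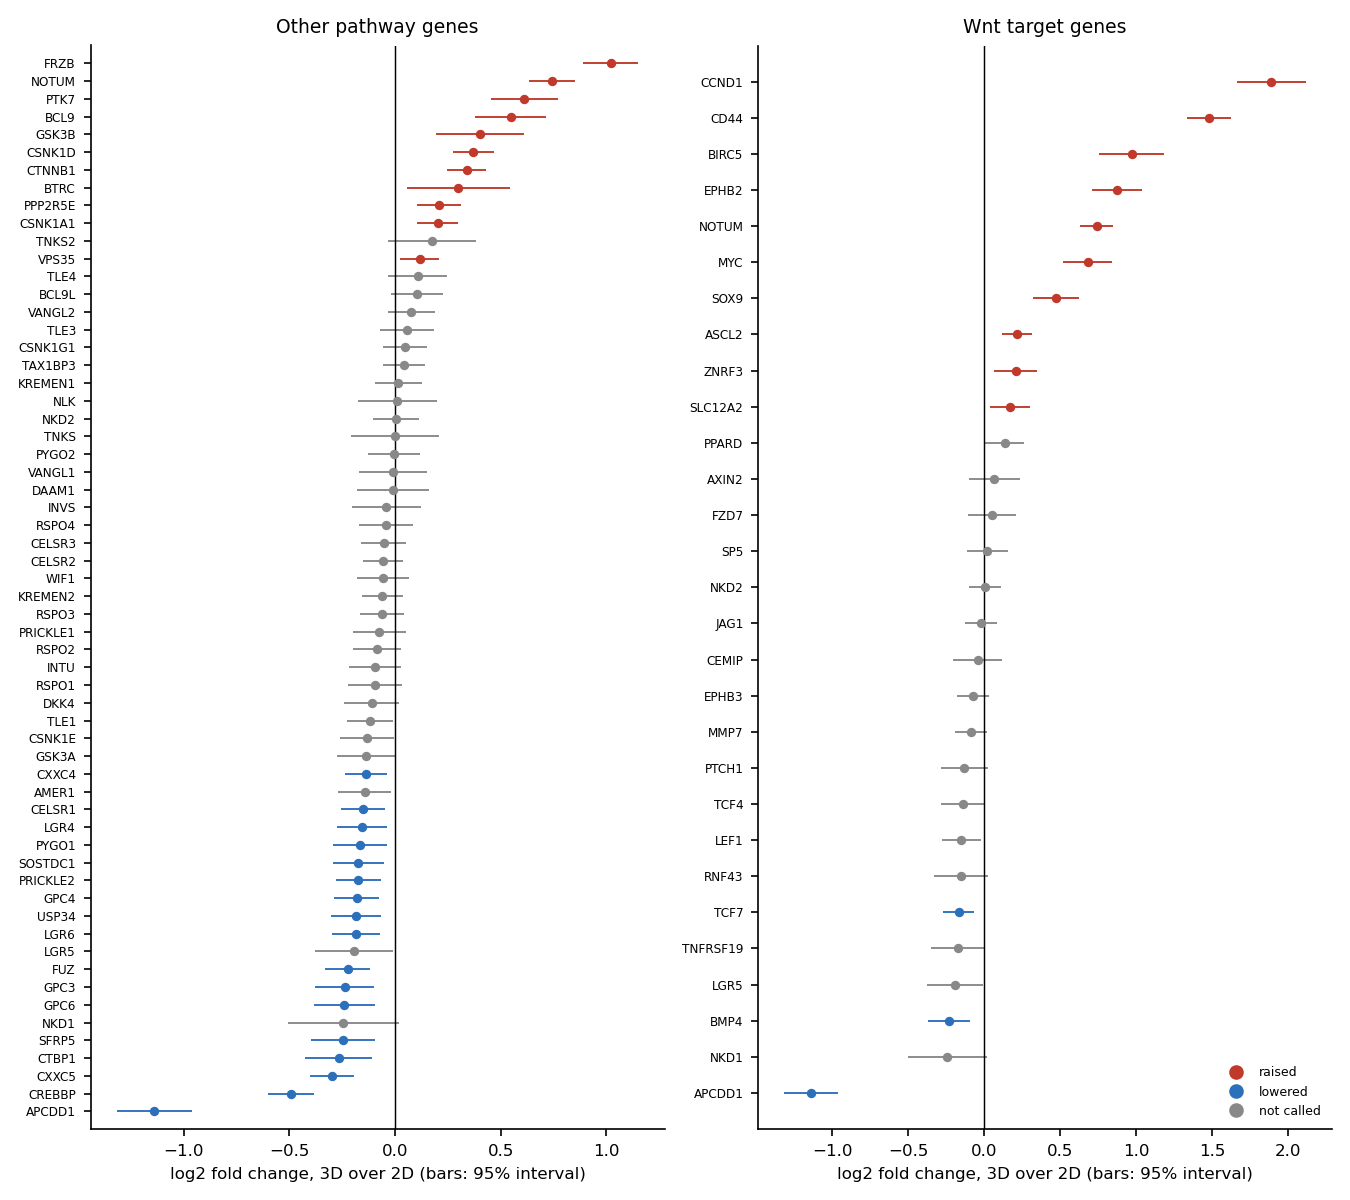
Log2 fold change of 3D over 2D (horizontal axis) for 60 further genes of the Wnt pathway (left) and 29 Wnt target genes (right), with the 95% interval of the limma fit (n = 6 arrays per group) and colour for the call. FRZB and APCDD1 mark the ends of the left panel, and CCND1, CD44 and BIRC5 lead the right panel, while AXIN2 lies at 0.07.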

How the data were processed

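RNA of 6 pools from 3D and 6 from 2D cultures, grouped by the labels, was read on 12 one-colour Affymetrix dog arrays. Each array's deposited column holds linear intensity values, 1 for each probe set, made by the authors with GCRMA per the submitters' processing notes, with version and later scaling not given in the sources used here. Of 43035 probe sets, 111 Affymetrix controls were left out. No filter on dim probe sets was used. Genes were named from the platform annotation: 29254 probe sets named 1 gene, 439 several and 13231 none, and only the first were used. On log2(intensity + 1), limma 3.58.1 (lmFit, then eBayes, under R 4.3.3) compared 3D with 2D, with Benjamini-Hochberg adjustment over all 42924 probe sets. No fold is given for a called gene or probe set at or below background on every array of both groups. The same holds for DKK1, whose 2D mean lay below the 2D background. Single values were compared over all 924 assignments of arrays. Array number limits the precision. The fit was tested on simulated data, and plots were made in Python 3.11.15 with matplotlib 3.10.9.

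Members, lists and alternatives were chosen with earlier results of these data known. Every Wnt gene was named, with values for those called and up to 2 others of highest mean in each role. Of the partner and target lists the 6 called genes with the largest change were named, and others named were chosen after their values were seen. The alternatives were a filter of a log2 value above 6 on at least 6 arrays, quantile normalization, array medians set equal, a trended and robust variance prior, weighted arrays, replicate number fitted as a block, each array omitted in turn, 3D replicate 2 and 2D replicate 6 omitted together, a pseudocount of 16, the RNA control ratio as a covariate, changes of at least 2-fold only, and averaging a gene's probe sets. The RNA ratio was also taken from actin or GAPDH pairs alone, chosen after seeing the data.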

Additional observations from a re-analysis of the deposited data

Results flagged for a closer look

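Within a group of 6 arrays, 1 array stood far from the others in 10 of the 102 sets of values checked (51 genes in 2 groups), or 9.8%, where chance gives such a gap in about 1 of 20. In 2D, LRP6 was high on replicate 1 at 6.87, FZD2 low on replicate 5 at 8.39, and WNT4 and WNT8B high on replicate 2 at 6.27 and 6.11. On 2D replicate 6, APC was low at 10.48, WNT7B low at 4.82 and PORCN high at 8.08, the other arrays of PORCN lying between 7.52 and 7.65. In 3D, WNT3 and TCF7L2 were high on replicate 2 at 7.87 and 8.22, and DKK3 was high on replicate 5 at 6.14. Of these 10, 5 fell on 2D replicate 6 or 3D replicate 2, which lay farthest out along principal component 2.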

How the results depend on the processing

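FZD2, FZD6, RYK, WLS and WNT7A, 5 of the 19 called Wnt genes, kept direction and call under every alternative but the 2-fold minimum, and 6 others lost the call without at least 1 array, as given in the report. Of 32 uncalled genes, 20 were called under no alternative and 8 gained a call without 1 array. With the mean over probe sets DKK3 (0.13, limma adjusted p = 0.0287), TCF7 (0.19) and TCF7L2 (0.11, limma adjusted p = 0.0566) changed sign and 8 Wnt genes were raised. The 2-fold minimum left 0 Wnt genes and 0 of their probe sets in either direction, 1 raised and 1 lowered partner, 2 raised targets and 1 lowered, 621 raised and 102 lowered probe sets, and 280 raised and 41 lowered genes. By the filter above log2 6, 13 Wnt probe sets, 8 Wnt genes and 11 partners were lowered, since fewer genes were tested. Quantile normalization left 9 lowered Wnt genes. The RNA ratio as a covariate left 2 lowered Wnt genes, 8 lowered Wnt probe sets, 7 raised and 5 lowered partners, 1621 lowered genes and 4542 lowered probe sets. Lowered targets numbered 6 with array weights, 5 without both outlying arrays and 5 with the replicate block. Where not stated, the cause was not tested.

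Without each array in turn, raised Wnt genes numbered 3 to 6 and lowered ones 10 to 18, raised Wnt probe sets 10 to 13 and lowered ones 14 to 25, raised partners 9 to 11 and lowered ones 13 to 19, and raised targets 8 to 10 and lowered ones 3 to 6. Raised genes numbered 2729 to 3198, lowered genes 2777 to 3942, raised probe sets 6453 to 8033 and lowered ones 7430 to 11016. The RNA ratio difference lay between 0.25 and 0.35 (exact permutation p 0.00216 to 0.0368).

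Arrays of the 2 groups share replicate numbers, and the labels do not say whether equal numbers are pairs. Deviations from the group means of arrays with the same number correlated by 0.0008 to 0.36, and under 0.1 for 3 of 6 numbers. Yet 4 of 6 2D arrays correlated best with the 3D array of their own number, so these values do not settle whether the numbers are pairs. The main fit did not pair them. The replicate block left 3 raised Wnt genes, ending the calls of FZD5, FZD10, WNT10B and ZNRF3 (limma adjusted p 0.0577 to 0.0820). Signal over background limits most ligands, whose changes could not be measured below that level.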
